A study of Homo sapiens with 12 samples.

Results

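The HOX cluster genes encode homeodomain transcription factors, and their expression was described here in 5 B-lineage-derived lymphoma and leukaemia cell lines. All rows of the deposited expression table whose gene symbol is HOX followed by a cluster letter from A to D and a number were taken, which gave 39 genes of 26210 listed. They fell into 11 HOXA, 10 HOXB, 9 HOXC and 9 HOXD genes. The choice used only the symbol and no measured value.

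As background, human HOX genes lie in 4 clusters on different chromosomes, and genes with the same number in different clusters, called paralogues, descend from a common ancestral gene. Low-numbered (anterior) genes sit at one end of a cluster and high-numbered (posterior) genes at the other, and in the embryo this order matches the order in which they are used along the body axis. HOX proteins bind DNA together with TALE homeodomain cofactors of the MEIS, PBX and PKNOX families. In blood, HOXA and HOXB genes such as HOXA9 and HOXB4 are known from stem and progenitor cells and from leukaemia, whereas the most posterior genes are best known from limb, urogenital and skin development.

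The 3 classical Hodgkin lymphoma (cHL) cell lines were KM-H2, L1236 and L428, and the control cell lines were Namalwa, from Burkitt lymphoma, and Reh, labelled as a pro-B lymphoblastic leukaemia. Reh was also treated with phorbol myristate acetate (PMA, an activator of protein kinase C) at 2 ng/ml, and this group is called Reh_PMA. How long the treatment lasted for these libraries is not given in the sources used here. The other groups had no treatment. Total RNA depleted of ribosomal RNA was sequenced from 2 libraries per group, 12 in all. The 2 libraries of a group come from 1 cell line and nothing states that they are separate cultures, so p-values between lines or for PMA measure only the spread between these libraries, which may be technical. The cHL cell lines were grown in IMDM and the control cell lines in RPMI, so culture medium and lymphoma type cannot be told apart.

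Levels are given as FPKM, fragments scaled to transcript length and to the mapped fragments of the library, in which values of different genes can be compared per length. For each group the value of the library with column suffix 0 is given first and that with suffix 1 second. The table holds no counts, so the sequencing depth is unknown. The correlation of log2(FPKM + 1) between duplicate libraries was 0.906 to 0.985, higher than with any library of another group. Some genes with wide use were listed at 0 in single lines, such as MTX2 in Reh, so a 0 is reported only as listed at 0. All 8 B-lineage markers were lower in the 3 cHL cell lines than in both control cell lines by line mean, against 17.1% of all genes tested. All 7 Hodgkin-associated markers were higher by the same measure, against 17.9%. Among precursor markers Reh had DNTT, while VPREB1 was listed at 0 in it.

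The clusters were located in GRCh37, the release that corresponds to hg19, with GENCODE v44lift37. HOXA lies on chromosome 7. HOXB spans chr17:46605888-46806112, HOXC chr12:54332615-54449814 and HOXD chr2:176957449-177055635. By this annotation 9 of the 39 genes share exon bases with another listed gene on the same strand, so their reads could be divided between them. Among these are HOXC4 with HOXC6 (484 bases, 17.5% of the exon bases of HOXC4) and HOXD11 with HOXD10 (452 bases, 21.4% of those of HOXD11). A further overlap with a listed gene on the opposite strand was found for 20 genes. Whether the counting used strand is not given in the sources used here, so for these genes sense and antisense reads may not have been separated.

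RefSeq promoter windows (GRCh38.p14, the 250 bases before the start) were held for 20 of the 39 genes, as 27 windows. Shown are 3 HOXD genes whose levels were high in L1236, the neighbouring HOXD8 with a different pattern, and HOXA13 and HOXC4, which changed with PMA in opposite directions. This choice, and that of the motifs, was made after the values were seen. Capitals mark matches, on either strand, to the TATA box letters TATAAA, to the CCAAT box or to the AP-1 site TGANTCA, and neighbouring matches can overlap.
HOXD13, chr2:176092471-176092720, plus strand: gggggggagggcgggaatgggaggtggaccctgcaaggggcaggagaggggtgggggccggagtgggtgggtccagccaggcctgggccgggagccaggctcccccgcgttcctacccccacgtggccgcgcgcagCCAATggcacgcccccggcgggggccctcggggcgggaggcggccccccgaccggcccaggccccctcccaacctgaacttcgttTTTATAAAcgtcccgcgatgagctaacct
HOXD11, chr2:176107030-176107279, plus strand: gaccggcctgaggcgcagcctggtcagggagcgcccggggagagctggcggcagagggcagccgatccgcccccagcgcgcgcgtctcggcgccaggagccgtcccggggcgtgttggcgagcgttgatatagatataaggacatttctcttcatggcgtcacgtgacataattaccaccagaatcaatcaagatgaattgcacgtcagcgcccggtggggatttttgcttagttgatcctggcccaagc
HOXD10, chr2:176116528-176116777, plus strand: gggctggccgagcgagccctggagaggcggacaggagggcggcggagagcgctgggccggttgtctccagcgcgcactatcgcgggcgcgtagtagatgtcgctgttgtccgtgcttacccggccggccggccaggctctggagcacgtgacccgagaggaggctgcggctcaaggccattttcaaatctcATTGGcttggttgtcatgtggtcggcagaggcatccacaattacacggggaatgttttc
HOXD8, chr2:176129455-176129704, plus strand: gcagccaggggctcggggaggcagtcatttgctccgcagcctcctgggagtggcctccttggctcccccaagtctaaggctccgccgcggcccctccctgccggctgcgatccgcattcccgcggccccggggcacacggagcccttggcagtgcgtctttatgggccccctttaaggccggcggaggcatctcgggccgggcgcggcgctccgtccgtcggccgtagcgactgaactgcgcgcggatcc
HOXA13, chr7:27200092-27200341, minus strand: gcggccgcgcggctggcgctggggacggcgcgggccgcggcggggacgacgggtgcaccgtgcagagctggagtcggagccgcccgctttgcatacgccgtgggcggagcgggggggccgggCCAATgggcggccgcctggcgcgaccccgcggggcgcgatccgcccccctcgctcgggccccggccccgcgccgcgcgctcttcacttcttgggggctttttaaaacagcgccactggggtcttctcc
HOXC4, chr12:54016638-54016887, plus strand: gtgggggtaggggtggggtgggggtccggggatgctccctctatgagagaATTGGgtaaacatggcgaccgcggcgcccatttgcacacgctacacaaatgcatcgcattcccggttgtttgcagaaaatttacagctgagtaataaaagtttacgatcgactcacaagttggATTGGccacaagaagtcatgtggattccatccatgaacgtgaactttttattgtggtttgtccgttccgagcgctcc
CCAAT was found in 66.7% of the HOX windows and in 32.0% of all 35116 windows. The letters TATAAA were found in 18.5% of HOX windows and 10.7% of all. The AP-1 site was found in 0.0% and 6.6%, and says nothing of where the factor binds. The median number of CpG dinucleotides was 19 in the HOX windows and 11 in all windows, at a median GC content of 58.8% and 58.0%. HOXC4 and HOXC5 share 1 window in this table. A match is a description of these letters only.

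HOX genes were low to moderate in level, and the 5 lines used different ones. The summed FPKM of the 39 genes was 65.5 and 52.2 in KM-H2, 105.3 and 90.9 in L1236, 101.3 and 131.5 in L428, 24.0 and 23.4 in Namalwa, 24.1 and 22.9 in Reh, and 10.5 and 13.1 in Reh_PMA. All 6 cHL libraries lay above all Namalwa, Reh and Reh_PMA libraries. The number of HOX genes at 1 FPKM or more ran from 11 to 18 per library in the cHL cell lines, was 7 or 8 in Namalwa and 7 in both Reh libraries, and was 3 and 5 in Reh_PMA. The highest single value was HOXB7 in L428, at 38.1 FPKM in one library and 17.1 in the other. HOXB1, HOXC12 and HOXD1 were listed at 0 in all 12 libraries.

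**Figure D1:**
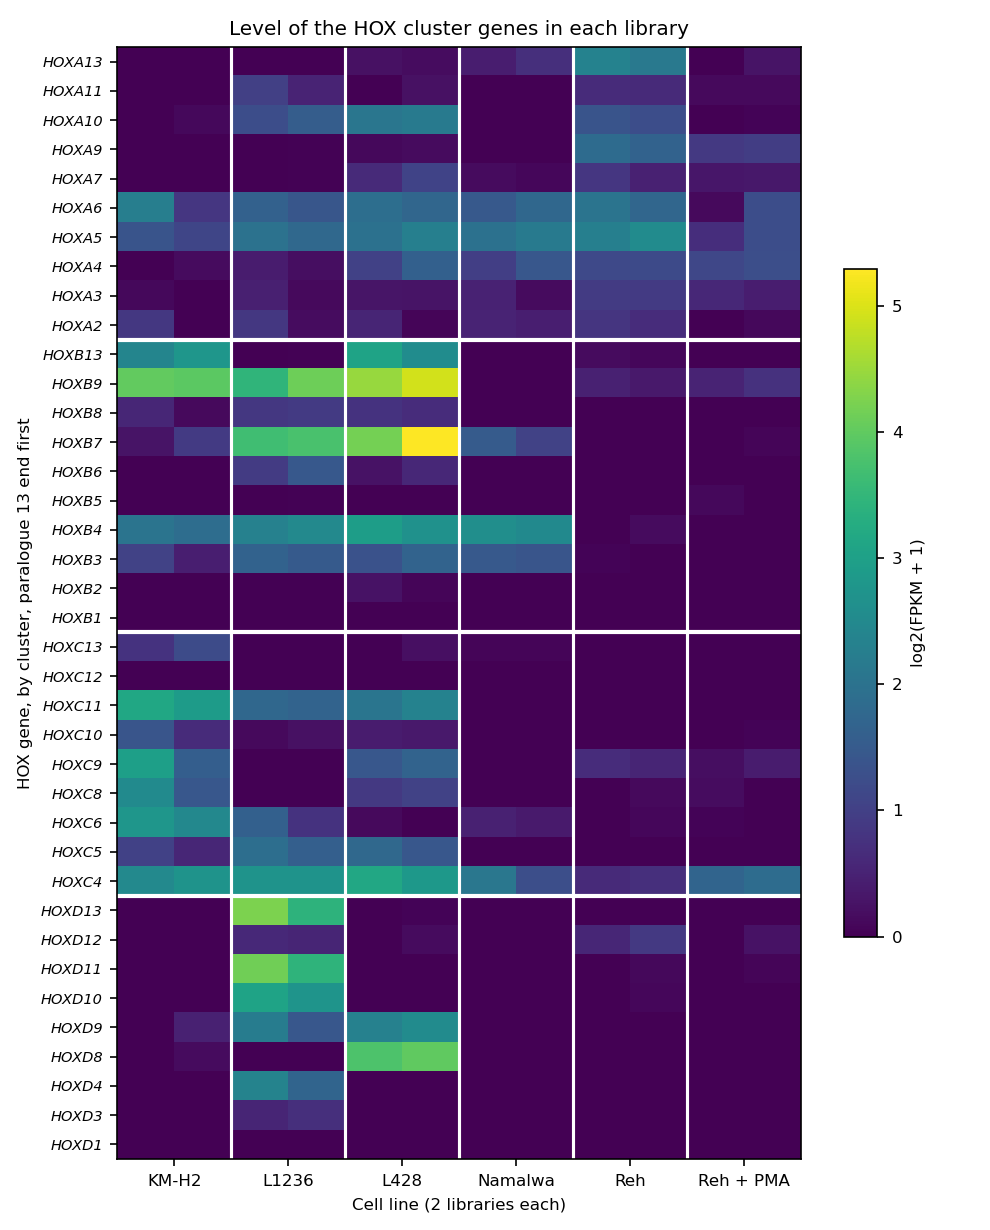
Level of 38 of the 39 HOX genes (rows, by cluster, highest paralogue number first) in the 12 libraries (columns, 2 per line), as log2(FPKM + 1) in colour; white lines separate clusters and groups. HOXB9 is bright in all 3 cHL cell lines, HOXB7 in L1236 and L428, HOXD10, HOXD11 and HOXD13 in L1236, HOXD8 in L428, and HOXA9 and HOXA13 in Reh.

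For the comparison among the untreated lines, a gene was tested where it reached 1 FPKM in at least 2 of the 12 libraries, and it was called where the adjusted p was under 0.05 and the difference at least 1 on the log2(FPKM + 1) scale. Of the 39 HOX genes 24 were tested: 7 HOXA, 5 HOXB, 6 HOXC and 6 HOXD. By limma's moderated F test 23 of these 24 were called, against 66.3% of the 14679 genes tested. A HOX gene that passed the filter only through the line in which it was high had to differ between lines, so this count is no measure of the family. HOXA6 was not called (adjusted p = 0.903). Over the 10 pairs of lines, 106 of the 240 tests on HOX genes were called, against 27.9% of the tests on all genes.

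The pairs divided as follows, with the share of all genes called in the same direction beside each count. Of the 24 tested HOX genes 13 reached 1 FPKM in cHL libraries alone, so the balance of higher over lower against Namalwa and Reh was favoured by the filter and the counts are a description. L1236 exceeded Reh for 13 HOX genes (15.7% of all genes) and was below it for 2 (14.9%). L428 exceeded Reh for 10 (15.5%) and was below it for 2 (14.7%). KM-H2 was above Reh for 8 (17%) and below for 5 (15.4%). L1236 exceeded Namalwa for 11 (16.5%), and by the same test no HOX gene was lower in L1236 (12.8%), where 2 were lower at an unadjusted p under 0.05. L428 was above Namalwa for 10 (17.5%) and below for 1 (13.6%), and KM-H2 for 6 (17.3%) and 2 (12.9%). The lines within each class also differed. KM-H2 was above L1236 for 5 (13.6%) and below for 7 (13.2%), above L428 for 2 (13.7%) and below for 5 (13%). L1236 was above L428 for 6 (11%) and below for 4 (11.2%). Namalwa was above Reh for 4 (7.7%) and below for 3 (11.8%). Over the 3 pairs of cHL cell lines 25.2% of the tests on all genes were called in either direction. The 10 pairs share lines and are not independent.

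The HOXA genes were the main HOX expression of Reh, where they made up 91.0% and 88.2% of the HOX sum. Their summed FPKM was 21.9 and 20.2 in Reh, and in the other untreated lines it ran from 4.63 in a KM-H2 library to 14.9 in an L428 library. HOXA13, a posterior gene known from limb and urogenital development, had 4.05 and 3.41 FPKM in Reh and 0.348 and 0.643 in Namalwa. It had 0.187 and 0.127 in L428 and was listed at 0 in KM-H2 and L1236. Reh therefore stood above the 4 other lines without overlap (2.24 ± 0.15 SE against KM-H2 on the log2(FPKM + 1) scale). HOXA9, a leukaemia-associated gene of haematopoietic progenitors, was likewise highest in Reh, with 2.60 and 2.15 FPKM in Reh and no value above 0.118 in the 8 libraries of the other 4 lines. Both genes reached 1 FPKM in untreated Reh alone and so passed the filter only through it, which favoured their calls against the 4 other lines.

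HOXA10, which neighbours HOXA9, was shared by 3 lines. It had 3.22 and 3.49 FPKM in L428, 1.39 and 1.94 in L1236, and 1.61 and 1.38 in Reh. KM-H2 had 0 and 0.0853, and Namalwa was listed at 0. The 3 expressing lines exceeded KM-H2 and Namalwa in all 6 pairs, whereas no pair among the 3 was called. HOXA4 had 1.03 and 2.06 FPKM in L428, 0.983 and 1.72 in Namalwa, 1.25 and 1.27 in Reh, and at most 0.319 in KM-H2 and L1236. KM-H2 was called below the 3 lines with more HOXA4, and L1236 below L428.

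HOXA5 and HOXA6 were present in every line. HOXA5 had 3.85 and 4.85 FPKM in Reh, 2.95 and 3.44 in Namalwa, 2.94 and 3.86 in L428, 3.01 and 2.46 in L1236, and 1.60 and 1.16 in KM-H2. Its 1 called pair was KM-H2 below Reh (by 1.17 ± 0.24 SE, adjusted p = 0.0044); its call by the F test was lost without KM-H2 replicate 1 (adjusted p = 0.0832). HOXA6 ranged from 0.794 to 3.79 FPKM, both values in KM-H2, so its duplicates spread as far as the lines did.

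The HOXB genes reached the highest summed level of the 4 clusters. Their summed FPKM was 55.0 and 81.1 in L428, 29.7 and 38.1 in L1236, 24.5 and 24.4 in KM-H2, 8.77 and 7.39 in Namalwa, and 0.540 and 0.471 in Reh. The 5 untreated lines did not overlap. HOXB9 had 21.2 and 29.4 FPKM in L428, 15.3 and 14.6 in KM-H2, 10.1 and 16.4 in L1236, and 0.403 and 0.287 in Reh, and it was listed at 0 in Namalwa. It reached 1 FPKM in the cHL libraries alone, which favoured its calls in each cHL cell line against each control cell line, and no pair among the cHL cell lines was called. HOXB7 had 17.1 and 38.1 FPKM in L428, 11.8 and 12.7 in L1236, 1.88 and 1.07 in Namalwa and 0.222 and 0.859 in KM-H2, and it was listed at 0 in Reh. Here KM-H2 stood with the control cell lines: L428 exceeded it by 4.14 ± 0.35 (SE) and L1236 by 3.13 ± 0.35 on the log2(FPKM + 1) scale, adjusted p 1.9e-05 and 0.00012.

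HOXB4, known for expanding haematopoietic stem cells when supplied in excess, had 6.74 and 5.36 FPKM in L428, 5.09 and 4.67 in Namalwa, 4.0 and 4.59 in L1236, and 3.13 and 2.69 in KM-H2. Reh had 0 and 0.112. Reh was called below the 4 other lines and no pair among those 4 was called. HOXB3 was similar, with 2.16 and 1.81 FPKM in L1236, 1.53 and 2.22 in L428, 1.80 and 1.64 in Namalwa, 1.07 and 0.354 in KM-H2, and 0.0296 and 0 in Reh. L1236, L428 and Namalwa were called above Reh. HOXB13, which lies apart from the rest of its cluster and is best known from prostate, had 7.34 and 4.91 FPKM in L428 and 4.34 and 5.82 in KM-H2. It had 0 and 0.0153 in L1236, 0.107 and 0.0722 in Reh, and was listed at 0 in Namalwa. KM-H2 and L428 were called above each of the 3 other lines. HOXB13 reached 1 FPKM in KM-H2 and L428 alone. It was thus tested only through the lines in which it was high, which favoured these calls.

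**Figure D2:**
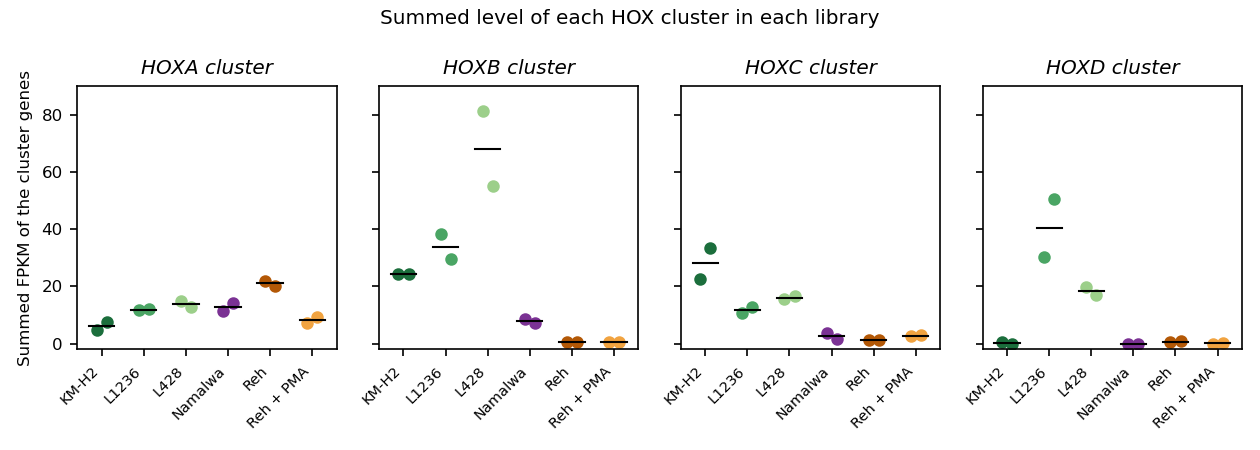
Summed FPKM of the genes of each HOX cluster in each library (points; the bar is the mean of 2 libraries), one panel per cluster on a common axis. The HOXB sum is highest in L428, the HOXD sum is over 1 FPKM only in L1236 and L428, and the HOXA sum is highest in Reh.

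The HOXC genes were highest in KM-H2. Their summed FPKM was 33.4 and 22.7 in KM-H2, 16.5 and 15.6 in L428, 12.9 and 10.8 in L1236, 3.73 and 1.76 in Namalwa, and 1.14 and 1.25 in Reh. HOXC11, a posterior gene, had 7.94 and 6.48 FPKM in KM-H2, 3.13 and 4.07 in L428 and 2.39 and 2.22 in L1236, and it was listed at 0 in all Namalwa, Reh and Reh_PMA libraries. It too entered through the cHL libraries alone, so its calls against the control cell lines were favoured by the filter. KM-H2 was called above L1236 (1.31 ± 0.16 SE, adjusted p = 0.00021). HOXC4, a HOX gene also known from mature lymphoid cells, had 8.0 and 6.03 FPKM in L428, 5.54 and 5.62 in L1236, 4.6 and 5.56 in KM-H2, 3.27 and 1.40 in Namalwa, and 0.546 and 0.628 in Reh. Every other untreated line was called above Reh. HOXC5, next to it, had 2.76 and 2.05 FPKM in L1236, 2.43 and 1.70 in L428 and 1.03 and 0.477 in KM-H2, and was listed at 0 in the control cell lines.

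HOXC6, HOXC8 and HOXC9 were highest in KM-H2. HOXC6 had 5.81 and 4.56 FPKM in KM-H2, 2.08 and 0.719 in L1236, 0.0966 and 0 in L428, 0.405 and 0.308 in Namalwa, and 0 and 0.0691 in Reh. KM-H2 was called above each of the 4 other lines. HOXC6 reached 1 FPKM in both KM-H2 libraries and in 1 of L1236. It thus passed the filter only with KM-H2, which favoured these calls. HOXC8 had 4.75 and 1.72 FPKM in KM-H2 and 0.827 and 1.05 in L428, was listed at 0 in L1236 and Namalwa, and had 0 and 0.0981 in Reh. HOXC9 had 6.96 and 2.00 FPKM in KM-H2, 1.70 and 2.23 in L428 and 0.597 and 0.458 in Reh, and was listed at 0 in L1236 and Namalwa. For HOXC8 and HOXC9 the 2 libraries of KM-H2 differed widely, and for HOXC9 those of L428 overlapped them. The pair KM-H2 and L428 was called for HOXC8 (1.03 ± 0.28 SE, adjusted p = 0.019) and not for HOXC9. HOXC8 too passed the filter only with KM-H2, so its call was favoured. KM-H2 was also the 1 line with CD3D, a T-cell gene, at 13.5 and 22.5 FPKM, with CD3E at 0.197 and 0. CD2, another T-cell gene, was at 0.779 and 1.01 FPKM in KM-H2 and at most 0.159 elsewhere. The summed FPKM of the 5 T and NK markers was 24.2 to 27.0 in KM-H2, 25.3 to 28.5 in L428 and 10.5 to 26.0 in L1236, and GATA3 made up most of it in L428 and L1236. Of the 6 myeloid markers 3 reached a mean of 1 FPKM in KM-H2, with a summed FPKM of 11.1 to 16.65, against 1.23 to 6.23 in the other cHL cell lines and 28.5 to 34.9 in Reh. CD14 was at 5.79 and 4.56 FPKM in KM-H2 and at most 0.139 elsewhere, and ITGAM at 9.14 and 4.24, with 2.56 and 2.26 in Reh, whereas MPO and CEBPA were listed at 0 in KM-H2. The part of these genes in the KM-H2 HOXC levels was not tested.

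The HOXD genes were at 1 FPKM or more in L1236 and L428 alone. Their summed FPKM was 50.7 and 30.3 in L1236 and 17.0 and 19.9 in L428, against 0 and 0.522 in KM-H2, 0.479 and 0.977 in Reh, and 0 in both Namalwa libraries. In L1236 the posterior genes led. HOXD13, a gene of digit development, had 17.9 and 9.69 FPKM there, HOXD11 16.65 and 9.86, and HOXD10 7.4 and 5.68. In the other 4 lines these 3 genes were listed at 0 or had at most 0.081. As given above, HOXD11 and HOXD10 share exon bases, so reads could be divided between them. HOXD4, at the anterior side of the cluster, had 4.12 and 2.26 FPKM in L1236 and was listed at 0 in all 10 other libraries.

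L428 used a different stretch of the same cluster. HOXD8 had 13 and 14.9 FPKM in L428 and at most 0.12 elsewhere, and it was listed at 0 in L1236. HOXD9 was the HOXD gene that both lines shared, with 4.0 and 4.87 FPKM in L428 and 3.67 and 1.70 in L1236. KM-H2 had 0 and 0.403 of it and the control cell lines were listed at 0. L1236 exceeded L428 for HOXD13 by 3.80 ± 0.22 (SE), and L428 exceeded L1236 for HOXD8 by 3.90 ± 0.13, adjusted p 1.8e-06 and 9.3e-08 over all genes and pairs. Of the HOXD genes only HOXD9 lies between HOXD10 and HOXD8 along the chromosome. HOXD8 reached 1 FPKM in L428 alone and HOXD4, HOXD10, HOXD11 and HOXD13 in L1236 alone, so each was tested only through the line in which it was high. These 4 genes of L1236 fall under the filter when 1 of its 2 libraries is left out, and HOXD8 does so when 1 of the 2 L428 libraries is left out. Beside these levels, the endothelial gene PECAM1 was at 32.0 and 17.5 FPKM in L1236 and at most 0.937 in the other untreated lines, and the collagen gene COL3A1 at 3.51 and 4.69 and at most 0.014. Of the 5 stromal and epithelial markers 2 reached a mean of 1 FPKM in L1236 (summed FPKM 22.2 to 35.8, at most 3.99 in the other untreated lines), with EPCAM at 0.107 and 0 and KRT18 listed at 0. The collagen gene COL1A1 went the other way, at 0.201 and 0.0689 in L1236 and 1.06 and 3.675 in KM-H2. Their part in the HOXD levels was not tested.

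**Figure D3:**
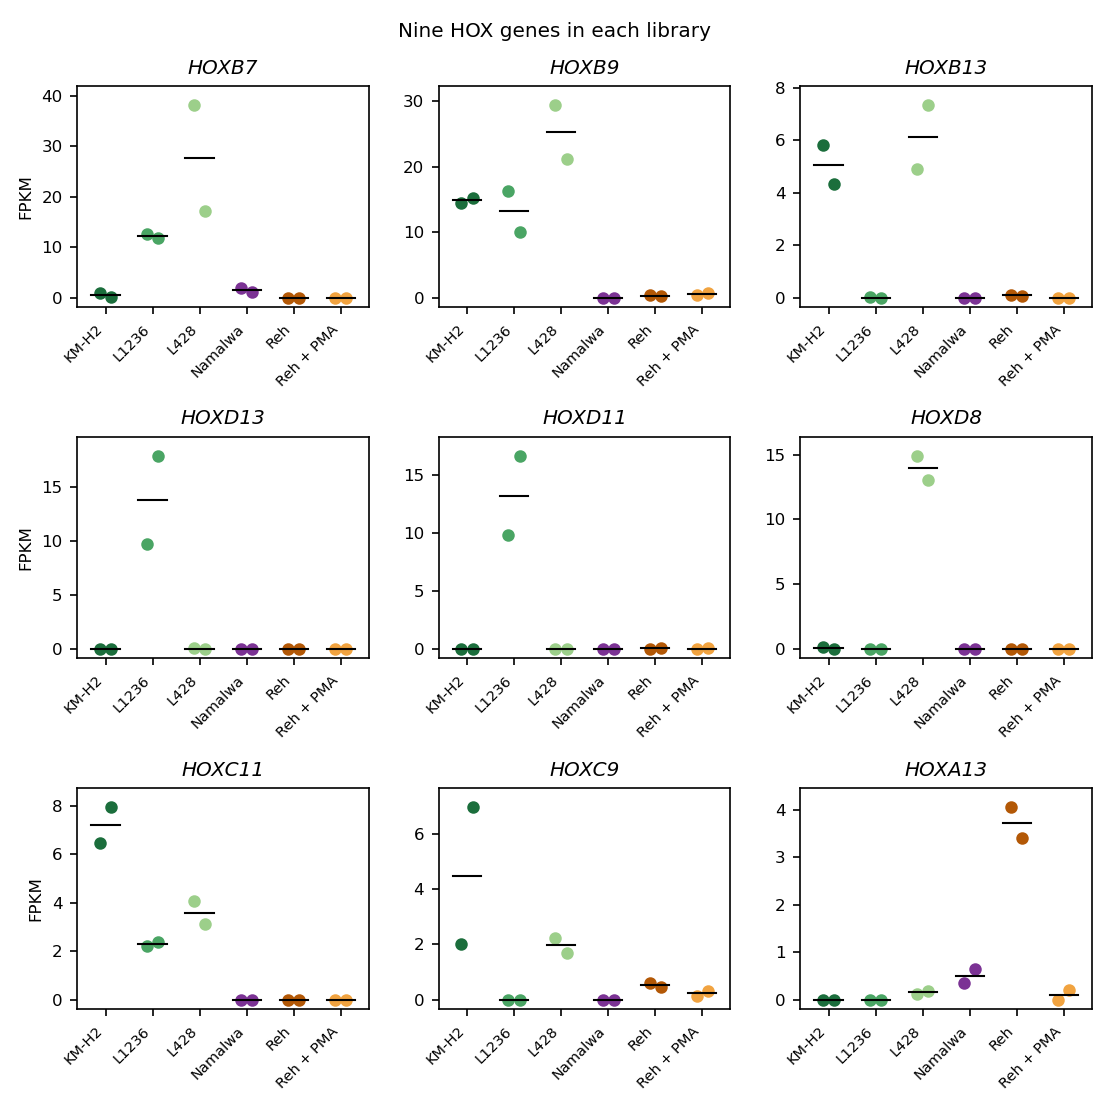
FPKM of 9 HOX genes in each library (points; the bar is the mean of 2 libraries; each panel has its own axis), picked after the values were seen to show how the lines differ. HOXD13 and HOXD11 are high in L1236, HOXD8 in L428, HOXB13 in KM-H2 and L428, and HOXA13 in Reh.

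The paralogues numbered 13 were divided among the lines. HOXA13 reached 1 FPKM only in untreated Reh, HOXB13 only in KM-H2 and L428, HOXD13 only in L1236, and HOXC13 in 1 KM-H2 library, at 1.32 FPKM. No paralogue 13 reached 1 FPKM in Namalwa or Reh_PMA. Over the whole posterior range from paralogue 9 to 13, Namalwa had a summed FPKM of 0.394 and 0.695, while the cHL cell lines had 31.3 to 61.1 and Reh 10.4 and 9.28. Posterior genes made up 1.64% and 2.97% of the HOX sum in Namalwa, 43.3% and 40.5% in Reh, and 38.0% to 59.8% in the cHL libraries. In Namalwa the central genes from 4 to 8 supplied 68.8% and 64.5%, with HOXB4 the highest. This pattern was noticed in the data and was not tested.

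The 15 HOX genes that were not tested stayed at or below 1.76 FPKM. HOXB6 had 0.880 and 1.76 FPKM in L1236, at most 0.495 in L428, and was listed at 0 in the other lines. HOXC10 had 1.63 and 0.579 in KM-H2 and HOXA7 had 0.554 and 1.09 in L428. Among the tested HOX genes the lowest maxima were 2.06 for HOXA4 and 2.22 for HOXB3, which each reached 1 FPKM in 7 libraries. HOXA2, HOXA3, HOXA11, HOXB2, HOXB5, HOXB8, HOXD3 and HOXD12 stayed under 1 FPKM in every library.

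The study set cHL cell lines against control B-cell lines, and this was asked of the HOX genes with the line as the unit, 3 lines against 2. HOXB9 was the 1 HOX gene called. As given above, it entered the test only through the cHL libraries, in which it was high. Its mean was 4.16 on the log2(FPKM + 1) scale in the cHL cell lines and 0.21 in the control cell lines, a difference of 3.95 ± 0.47 (SE; limma, adjusted p = 0.0471). Among all genes 0.32% were called higher and 0.225% lower. The HOXB9 call lay at the threshold: it was lost without any one line (adjusted p 0.119 to 0.228), without any of the 6 cHL libraries or Reh replicate 1 (0.0507 to 0.0772), with a pseudocount of 0.1 (0.0533), with quantile normalization (0.0516) and without the filter (0.139).

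The 13 HOX genes that reached 1 FPKM in cHL libraries alone entered this comparison only through the group in which they were high, so the counts and the median here are no measure of the family. By the order of the 5 line means, HOXB9, HOXC4, HOXC5, HOXC11 and HOXD9 were above both control cell lines in all 3 cHL cell lines, 5 of 24, against 17.9% of all genes, and 4 of the 5 were among those 13. HOXA13 was below both in all 3, 1 of 24, against 17.1%. At an unadjusted p under 0.05 there were 4 HOX genes, HOXB9, HOXC11, HOXC4 and HOXC5, against 13.5% of all genes, with HOXC4 the 1 not among the 13. The counts of HOX genes above in all 3 lines and at this p were near the share of all genes. HOXC11 differed by 2.32 ± 0.53 (SE, adjusted p = 0.184) and HOXC4 by 1.60 ± 0.49 (adjusted p = 0.276). The median difference of the 24 HOX genes was 1.02 and that of all genes tested was 0.02 on the same scale. When the 10 untreated libraries were treated as replicates 13 HOX genes passed, 12 of them higher in cHL cell lines and 9 of these 12 among those that entered through cHL libraries alone, against 24.6% of all genes called in either direction, but libraries of 1 line are not independent samples of its lymphoma type.

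HOXA13, HOXA10 and HOXA5 were called lower in Reh after PMA. HOXA13 went from 4.05 and 3.41 FPKM in Reh to 0 and 0.209 in Reh_PMA, a difference of -2.10 ± 0.15 (SE) on the log2(FPKM + 1) scale (limma, adjusted p 2.3e-05). HOXA5 went from 3.85 and 4.85 to 0.612 and 1.36 FPKM (-1.45 ± 0.24, adjusted p = 0.0024), and HOXA10 from 1.61 and 1.38 to 0 and 0.0302 (-1.30 ± 0.15, adjusted p = 0.000307). The groups did not overlap in any of the 3. These were the HOX genes called lower, 3 of 24, against 11.8% of all genes, a share near the background. The 3 calls held in every alternative in which the gene was tested. HOXA13 and HOXA9 reached 1 FPKM in the 2 untreated Reh libraries alone, so they entered the test only through the group in which they were high and a fall was favoured. HOXA9 had 2.60 and 2.15 FPKM before and 0.825 and 0.942 after PMA, a difference of -0.84 ± 0.12 (adjusted p = 0.000914), which was under the minimum size of a call; with a pseudocount of 0.1 it passed (-1.33, adjusted p = 0.00684). HOXA6 had 3.09 and 2.37 FPKM before and 0.104 and 1.37 after, and was not called (-1.20 ± 0.46, adjusted p = 0.0779).

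HOXA4, nearer the anterior end of the cluster, was not called. It had 1.25 and 1.27 FPKM in Reh and 1.17 and 1.42 in Reh_PMA (0.02 ± 0.23, adjusted p = 1). The median difference of the 7 HOXA genes tested was -1.20, with 5 below 0, and that of all genes was -0.03. Whether HOXA4 differs in response from the genes that fell was not tested.

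HOXC4 rose. It had 0.546 and 0.628 FPKM in Reh and 2.26 and 2.67 in Reh_PMA, without overlap, a difference of 1.12 ± 0.28 (SE, adjusted p = 0.0144). It was the 1 HOX gene of 24 called higher, against 10.5% of all genes. The call was lost when any 1 of the 4 Reh libraries was left out (adjusted p 0.0573 to 0.0839), with the difference between 1.04 and 1.21. Without either untreated Reh library 2 HOX genes were called in place of 4, since HOXA13 then fell under the filter and HOXC4 was not called. HOXC5, next to HOXC4, and HOXC11, farther along the cluster, were listed at 0 in all 4 Reh libraries. Of the genes that start between HOXC11 and HOXC4, HOXC9 had 0.597 and 0.458 FPKM in Reh and 0.142 and 0.314 in Reh_PMA. In these libraries HOXC6, HOXC8 and HOXC10 had at most 0.122.

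Markers of other states moved with PMA as well, where 10.5% of all genes were called higher and 11.8% lower. Of the 8 B-lineage markers 4 fell, namely CD79B, PAX5, EBF1 and BLK, and CD22 rose, while the summed FPKM of the list was 949.2 to 1027 before and 1115 to 1359 after. Most of the higher sum was CD79A, at 335.6 and 428.5 FPKM before and 946.6 and 1102 after, which was not called (adjusted p = 0.0602). The CD22 call was lost without Reh replicate 1 or Reh_PMA replicate 1 (adjusted p 0.0626 and 0.0575). Of the 7 Hodgkin-associated markers TRAF1 and ID2 rose, with a summed FPKM of 15.85 to 17.0 before and 269.5 to 355.3 after. PROM1, the 1 tested gene of 4 stem and progenitor markers, rose from 3.24 and 2.31 to 20.2 and 25.95 FPKM. Of the 4 germinal centre markers MYBL1 fell; this call was lost with quantile normalization and without Reh replicate 0 or Reh_PMA replicate 0. Of the 5 B-precursor markers 3 fell, and their summed FPKM went from 1077 to 1159 in Reh to 127.7 to 134.2 in Reh_PMA, with VPREB1 at 0 in both. The myeloid marker CSF1R rose from 0.285 and 0.202 to 11.8 and 11.2 FPKM, while MPO fell from 24.8 and 32.0 to 6.44 and 5.00 (adjusted p = 0.0359, up to 0.249 in the alternatives). The summed FPKM of the 6 myeloid markers was 28.5 to 34.9 before and 19.5 to 19.8 after, with CEBPA at 0 in both. Their part in the HOX changes was not tested, and fewer expressing cells and less RNA per cell cannot be told apart in these samples.

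**Figure D4:**
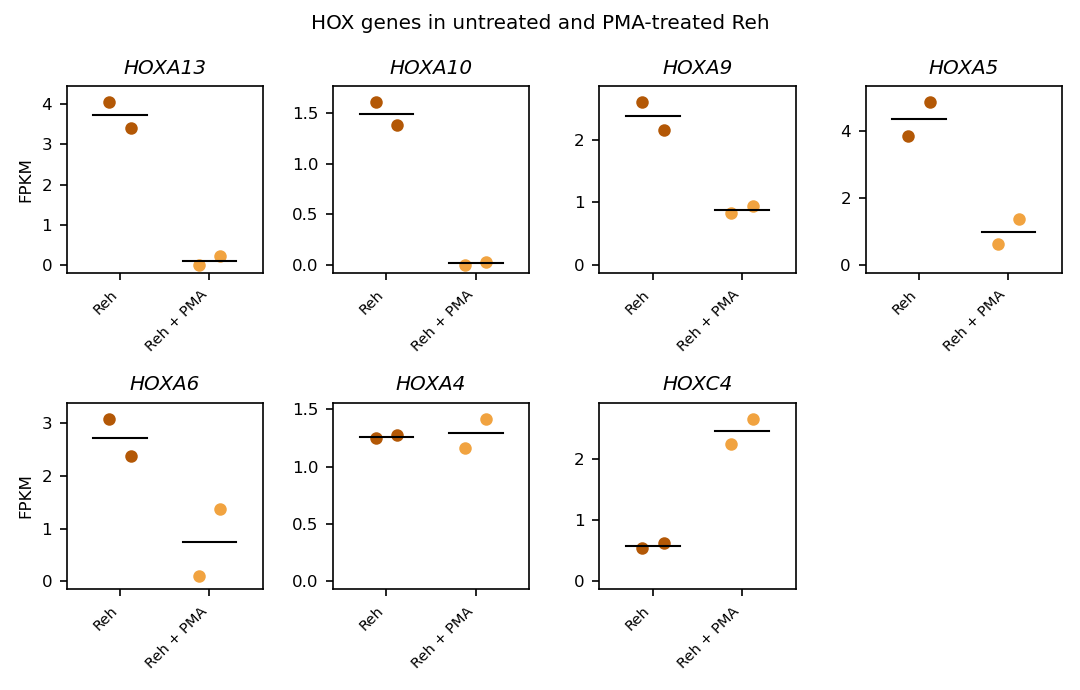
FPKM of 6 tested HOXA genes and of HOXC4 in untreated Reh and in Reh_PMA, 2 libraries each (points; the bar is the mean; each panel has its own axis, which includes 0). HOXA13, HOXA10 and HOXA5 are lower after PMA without overlap, HOXC4 is higher, and HOXA4 overlaps.

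Of the TALE cofactors 8 of 9 were tested, and 1 was called between cHL and control cell lines, against 0.32% of all genes called higher. MEIS1, the cofactor most often named with HOXA9 in leukaemia, had 10.5 and 11.3 FPKM in KM-H2, 9.18 and 11.3 in L1236 and 7.52 and 10.7 in L428. It had at most 0.0384 in the control cell lines and was listed at 0 in Reh_PMA. All 6 cHL libraries lay far above the rest, and MEIS1 was the cofactor called (3.42 ± 0.40 SE, adjusted p = 0.0454), though it too entered the test through the cHL libraries alone. Like that of HOXB9 this call was lost without any one line (0.0904 to 0.228), without any of the 6 cHL libraries (0.0559 to 0.0699), without the filter (0.142) and with quantile normalization (0.0516). MEIS2 had 14.6 and 9.32 FPKM in KM-H2, 8.32 and 7.94 in L1236, 6.90 and 6.29 in L428, 2.99 and 2.40 in Namalwa, and 0.0383 and 0 in Reh. MEIS3 was also above both control cell lines in all 3 cHL cell lines by line mean and, like MEIS2, was not called (adjusted p = 0.253 and 0.259). Like MEIS1, it reached 1 FPKM in cHL libraries alone, so this order was favoured by the filter. PBX2, PBX3 and PKNOX1 were below both control cell lines in all 3 by line mean and were not called either. By this order 4 of the 8 tested cofactors were above and 3 below, against 17.9% and 17.1% of all genes. As MEIS1 and MEIS3 are among those above, the first count is no measure of the list.

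PBX2 and PBX3 were present throughout, PBX2 between 6.33 and 20.7 FPKM and PBX3 between 5.09 and 11.4. By limma no TALE cofactor was called after PMA, and none had an unadjusted p under 0.05. Reh, with the highest HOXA9 level, thus had PBX2 and PBX3 but at most 0.0344 FPKM of MEIS1. The CDX genes, known activators of HOX genes, did not reach the filter.

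**Figure D5:**
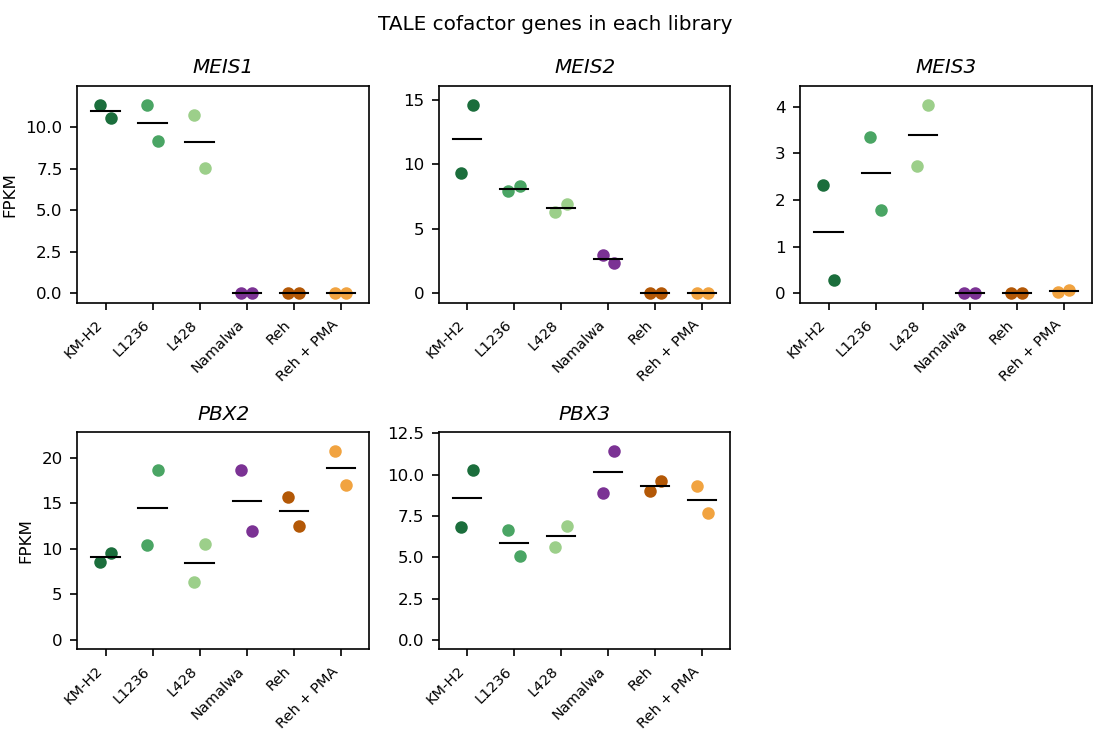
FPKM of 5 TALE cofactor genes, picked after the values were seen, in each library (points; the bar is the mean of 2 libraries; each panel has its own axis). MEIS1 lies between 7.52 and 11.3 in the cHL cell lines and under 0.04 in the rest, while PBX2 and PBX3 are present in all groups.

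Chromatin regulators that are known to act on HOX clusters were listed as an activating group, around the MLL, menin and DOT1L proteins, and as Polycomb and related factors. After PMA, 1 of 14 activating factors was called higher and 1 lower, against 10.5% and 11.8% of all genes. DOT1L, a histone methyltransferase, rose from 5.54 and 4.80 to 50.2 and 41.8 FPKM (2.93 ± 0.35 SE, adjusted p = 0.000452), and PSIP1, which tethers MLL to chromatin, fell from 92.1 and 70.7 to 27.9 and 23.5 (-1.62 ± 0.21, adjusted p = 0.000583). Of 20 Polycomb and related factors 4 were called higher and 5 lower, against the same shares of all genes. PHC2 rose from 39.4 and 42.0 to 275 and 216 FPKM, and KDM6B, a demethylase that removes the Polycomb mark, from 0.920 and 0.331 to 6.94 and 5.09. EZH2 and JARID2 also rose, while CBX2, SUZ12, CBX7, RBBP4 and EZH1 fell. CBX2 fell from 39.0 and 42.2 to 11.6 and 16.6 FPKM. The calls of DOT1L, PSIP1, PHC2 and KDM6B held in all 20 alternatives, whereas the other 7 were each lost without at least 1 of the 4 Reh libraries. Between cHL and control cell lines limma called none of either list, where at an unadjusted p under 0.05 2 activating factors and 4 Polycomb factors were lower, against 13.5% of all genes in either direction. MLLT3 was listed at 0 in all 4 Reh libraries.

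Non-coding genes of the clusters were low, and 4 of 16 were tested. HOTAIR, transcribed from the HOXC cluster next to HOXC11, had 2.54 and 1.5 FPKM in KM-H2, 1.28 and 1.16 in L1236 and 0.674 and 0.914 in L428. It was listed at 0 in all Namalwa, Reh and Reh_PMA libraries, the same libraries in which HOXC11 was listed at 0. HOTAIRM1, from the anterior end of HOXA, was present in every library, between 3.16 and 18.0 FPKM. HOXA10-AS, an antisense gene that shares exon bases with HOXA9 and HOXA10, had 1.03 and 0.425 FPKM in Reh and 2.50 and 3.67 in Reh_PMA and was listed at 0 in the other lines. It rose with PMA (1.25 ± 0.19 SE, adjusted p = 0.00139) while HOXA10 fell. It reached 1 FPKM in both Reh_PMA libraries and in 1 Reh library. HOXA10-AS thus passed the filter only with the group in which it was high, and a rise was favoured. Without Reh replicate 1 the difference was 0.99, under the minimum size of a call, and with only the 4 Reh libraries the adjusted p was 0.0514. HOTTIP, beside HOXA13, had 0.590 and 0.321 FPKM in Reh and was listed at 0 in Reh_PMA, and it was too low to be tested. The 6 cluster microRNA rows were listed at 0 in all libraries; FPKM of so short a feature is unreliable in total RNA libraries.

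Of 15 tested genes that flank the clusters 2 were called higher and 1 lower after PMA, against 10.5% and 11.8% of all genes. JAZF1, near HOXA, rose from 1.85 and 1.13 to 11.6 and 9.43 FPKM, and its call held in all 20 alternatives. The call of NFE2L1 (higher) was lost without any 1 of the 4 Reh libraries (difference 1.075 to 1.442) and with quantile normalization (adjusted p = 0.0631). That of CALCOCO1 (lower) was lost without either Reh library or Reh_PMA replicate 0 (difference -1.315 to -0.981). It was also lost with only the 4 Reh libraries (adjusted p = 0.0525). None was called between cHL and control cell lines by limma, where 4 were higher and 3 lower at an unadjusted p under 0.05, against 13.5% of all genes in either direction. MTX2, the gene next to the anterior end of HOXD, had 37.9 and 47.5 FPKM in KM-H2, 25.1 and 21.8 in L1236, 62.0 and 55.1 in L428 and 23.6 and 14.4 in Namalwa, and it was listed at 0 in all 4 Reh libraries. KM-H2 and Namalwa thus had MTX2 with a HOXD sum of at most 0.522 FPKM. SNX10, near HOXA, was listed at 0 in both untreated Reh libraries and had 10.7 to 48.4 FPKM in the other untreated lines.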

How the data were processed

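Total RNA from 6 groups of cell lines (5 untreated lines and Reh_PMA, 2 libraries each) was prepared by the submitters with a stranded, ribosomal RNA depleted kit. The submitters' processing notes name TopHat2 2.0.11, Cuffnorm 2.2.1 and hg19; the gene annotation, the scaling method, the strand setting and which library ran on which of the Illumina instruments used are not given in the sources used here. The authors deposited FPKM values, 1 column per library, and 0 columns were left out. Columns end in 0 or 1, which no label ties to a replicate number, so columns were assigned to groups only and "replicate 0" means the column ending in 0.

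Values were taken as log2(FPKM + 1) for the 14679 of 26210 genes with at least 1 FPKM in at least 2 libraries and tested with limma 3.58.1 (R 4.3.3) with a mean-variance trend, fitted across all genes, in 1 group-means fit of the 12 libraries; cHL and control cell lines were compared on line means. P-values were adjusted by Benjamini-Hochberg over all genes, and over all genes and pairs for the line pairs. Differences are on this scale, understate the change of low genes and are no fold changes. The code was tested on simulated data. Without counts, no counting interval or detection floor could be computed.

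The members, the cofactor, chromatin, neighbour and marker lists and the tests were chosen with earlier results of these data known. Each HOX gene that passed the filter was named with its values, apart from 1 that, like 1 cofactor, is not reported here and stays in the counts and sums of the report; of other lists at most 5 genes with the highest level or the largest called difference were to be named, and a few more are named where a HOX result turns on them or a small count is spelled out, chosen after their values were seen.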

Additional observations from a re-analysis of the deposited data

Results flagged for a closer look

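HOX genes differed between the 3 cHL cell lines themselves: 14 of the genes named here were called in at least 1 of the 3 line pairs, in 28 of 69 tests, by limma with adjustment over all genes and pairs, against 25.2% of the tests on all genes in these pairs. A gene that passed the filter only through the line in which it was high had to differ. These were taken up here because the cHL cell lines differ under the same design. The largest difference of each gene, on the log2(FPKM + 1) scale, is given. For KM-H2 minus L1236 it was 1.31 for HOXC11, 1.98 for HOXC8, 2.29 for HOXC9, -2.90 for HOXD10, -3.79 for HOXD11, -3.83 for HOXD13 and -2.03 for HOXD4. For KM-H2 minus L428 it was -2.06 for HOXA10, -1.24 for HOXA4, -4.14 for HOXB7, 2.56 for HOXC6 and -2.19 for HOXD9. For L1236 minus L428 it was -2.80 for HOXB13 and -3.90 for HOXD8. With 2 libraries per group, a test for single libraries far from the others could not be made.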

How the results depend on the processing

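Of 81 counts recomputed under another setting, 63 stayed within 1.5 times the reported count. The exceptions concerned PMA and the cHL comparison. The HOX genes changed by PMA numbered 4, and 2 to 5 with 1 library left out. The HOX genes that differ between cHL and control cell lines numbered 1, and 0 with a pseudocount of 0.1, without the filter or with quantile normalization, 13 with libraries as replicates, and 0 to 1 with 1 line or 1 library left out. Of HOX genes that differ among the lines 19 to 23 were called with 1 library left out (23 of 24 in full), fewest without an L1236 library, whose own genes then fall under the filter; pair calls ran from 89 to 112 (106 in full). HOXA6 passed for PMA without KM-H2 replicate 0 or 1 (adjusted p 0.0255 and 0.0257) or without Reh_PMA replicate 1 (0.0429). Of 2174 single-gene values recomputed, 16 changed sign, none of them called. For cHL minus control these were HOXD10 (-0.022) and HOXD11 (-0.028) without L1236, HOXA10 (-0.123) without Namalwa, HOXA6 (0.011), HOXA9 (0.05), HOXB3 (-0.167) and HOXB4 (-0.163) without Reh, and HOXA6 with 1 library left out (-0.358 to 0.114). For PMA, HOXC6 was at 0.015 with quantile normalization. With 1 library left out, the lowest and highest PMA differences were -0.066 and 0.03 for HOXC6, -0.067 and 0.099 for HOXC8, -0.079 and 0.034 for HOXD11, and -0.06 and 0.098 for HOXA4. The cause was not tested. No paired analysis was possible because no label ties the column suffixes to the replicate numbers, so the planned fits with a replicate block were not run. Without counts, what depth limits could not be assessed.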
